A study of Mus musculus with 9 samples.

Results

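The goblet, enteroendocrine and tuft lineage genes are 39 genes that mark the secretory and chemosensory cells of the gut epithelium or direct their formation. They were chosen by name and found by symbol in an expression table of 48795 genes: 23 goblet genes, 9 enteroendocrine genes and 7 tuft genes. All 39 were found. The 17 with a mean normalised count of 10 or more over the 9 libraries were tested (14 goblet genes, the enteroendocrine genes Chga and Chgb, and the tuft gene Dclk1), and 22 were below that level. Of the 39, 16 were under 10 in every library, among them Tff2, Cck and Gfi1b, which were listed at 0 throughout.

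Goblet cells secrete the mucus that covers the colon. Its scaffold is the mucin Muc2. Other members made in these cells travel with the mucin (Fcgbp, Clca1, Zg16, Tff3) or switch the programme on (Atoh1, Spdef, Foxa1, Foxa2, Foxa3, Creb3l1). Agr2 and Galnt12 fold or modify the mucin in the endoplasmic reticulum and Golgi. Ern2 senses stress of the endoplasmic reticulum, and Xbp1 expands the secretory apparatus. Enteroendocrine cells release hormones from granules packed with chromogranins and depend on the transcription factor Neurog3. Tuft cells sense luminal cues through a taste-like pathway and depend on Pou2f3. Progenitors choose between absorptive and secretory fates through Notch signalling, which holds Atoh1 down.

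RNA sequencing was carried out on organoids, three-dimensional cultures of epithelium grown from mouse colon crypts, of wild-type (WT) and AHR-deficient (AHR KO) genotype. AHR, the aryl hydrocarbon receptor, is a transcription factor switched on by ligands. Per the methods of the study, the AHR KO animals carried a floxed Ahr allele deleted in gut epithelium by a Cre driven from the Villin promoter, the WT animals were littermates, all were C57BL/6, and the age of the donors of these cultures is not given in the sources used here. The culture medium, WENR, contained Wnt, EGF, Noggin and R-spondin, which favour stem cells over mature cells. Per the study's methods, it was also supplemented with SB202190, an ALK5 inhibitor and nicotinamide. The part of these additions in the levels of the lineage genes was not tested. The organoids received the solvent DMSO or 5 nM of the AHR ligand FICZ for 4 h. The groups were WT DMSO (n = 2, replicates 2 and 3), WT FICZ (n = 3, replicates 1, 2 and 3), AHR KO DMSO (n = 2, replicates 1 and 3) and AHR KO FICZ (n = 2, replicates 1 and 3).

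The comparisons ask whether these lineage genes differ between genotypes, and whether 4 h of FICZ changes them in each genotype. The values are the authors' normalised counts, which summed to between 23177058 and 25033827 per library. Cyp1b1, an AHR target gene, separated the genotypes as labelled: it ranged from 1078 to 10600 in the WT libraries and from 25.4 to 222 in the libraries labelled AHR KO. AHR target genes were also higher with FICZ in the libraries labelled AHR KO: Cyp1b1 was 34.5 and 25.4 with DMSO and 137 and 222 with FICZ, and Cyp1a1 was 0 and 2.93 with DMSO and 100.3 and 139 with FICZ. In WT, Cyp1a1 was 5.84 and 0 with DMSO and 7797, 6988 and 7958 with FICZ. Ahr itself was higher in the libraries labelled AHR KO (1346 to 1443) than in WT (783 to 858), so that a count over the whole gene does not check the deletion. The epithelial markers Epcam, Krt8, Krt18, Krt19, Cdh1 and Vil1 summed to between 293703 and 321190 per library. Of these, Epcam was lower in AHR KO (21237 to 25811, against 31458 to 35708 in WT), with limma estimates of -0.43 in DMSO (adjusted p = 0.00846) and -0.46 in FICZ (adjusted p = 0.00145), and Krt18 was higher under FICZ (0.38, adjusted p = 0.00575). The replicates of WT FICZ were uneven for these members: replicate 2 was the lowest of the 3 in 11 of the 17 tested members (64.7%), against 37.8% of all 12741 genes tested. In bulk RNA, fewer cells of a lineage and less RNA per cell cannot be told apart.

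The summed level of the 23 goblet genes was 11956 and 13494 in the WT DMSO libraries and 8716 and 8640 in those of AHR KO DMSO. Under FICZ it was 12932, 11939 and 13440 in WT and 8923 and 8206 in AHR KO. Every AHR KO library was below every WT library. The enteroendocrine sum was far smaller, at 73.3 and 96.0 in WT DMSO, 29.6 and 54.8 in AHR KO DMSO, 125, 47.5 and 79.0 in WT FICZ and 32.9 and 54.9 in AHR KO FICZ. The genotypes did not overlap under DMSO, and under FICZ they overlapped only through WT FICZ replicate 2, without which every AHR KO library was below every WT library. Chgb made up most of the enteroendocrine sum in WT DMSO (56.5 and 64.1) and was 16.0 and 29.3 in AHR KO DMSO. The tuft sum was 41.9 and 58.4 in WT DMSO against 9.51 and 9.04 in AHR KO DMSO, without overlap. With FICZ it was 47.3, 18.0 and 24.8 in WT and 27.4 and 18.3 in AHR KO, with overlap. Most of the WT DMSO sum was Dclk1 (31.7 and 51.8). The other 6 tuft genes summed to 10.2 and 6.57 in WT DMSO and 4.24 and 5.77 in AHR KO DMSO, and with FICZ to 3.26, 6.35 and 8.03 in WT and 15.7 and 8.40 in AHR KO, where AHR KO was the higher.

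Levels of different genes can be compared per kilobase of the longest annotated transcript. On that scale, in the mean of WT DMSO, the highest of the members named here were the general secretory and endoderm factors Xbp1 (921 normalised counts per kb) and Foxa1 (820), followed by Clca1 (730.5) and Galnt12 (510). Chga (6.11) and Dclk1 (5.24) were low on the same scale. The transcription factors that commit cells to these lineages had low counts. Atoh1 was 19.5 and 8.47 normalised counts in WT DMSO, 9.87, 2.06 and 11.0 in WT FICZ, 7.21 and 6.82 in AHR KO DMSO, and 3.01 and 1.08 in AHR KO FICZ. The genotypes overlapped under FICZ, where WT FICZ replicate 2 was low, and not under DMSO. Neurog3 was at most 7.65 in any library and Pou2f3 at most 5.72, both down to a listed 0 in at least 1 library.

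Under DMSO, 5 of the 17 tested members were lower in AHR KO than in WT and none was higher (limma, Benjamini-Hochberg adjusted p under 0.05). They were the goblet genes Clca1, Agr2, Fcgbp and Foxa3 and the tuft gene Dclk1. Of these, only Clca1 kept the call whichever library was left out. Over all genes tested, 4.83% were lower and 4.21% higher in this comparison. These 1153 calls were 557 without WT DMSO replicate 2, 581 without WT DMSO replicate 3, 450 without AHR KO DMSO replicate 1, 389 without AHR KO DMSO replicate 3 and 744 without both WT libraries numbered 2. All 17 estimates were negative, with a median log2 difference of -0.64 beside -0.01 over all genes. Dclk1 and Chga reached the filter through WT, with AHR KO means of 4.27 and 8.69 under DMSO, so that these counts include members whose testing depended on a high WT level. At an unadjusted p under 0.05 the count was 8, and the share of all genes at that threshold is not given here, so this count has no background.

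Under FICZ, 6 members were lower in AHR KO (Clca1, Ern2, Agr2, Fcgbp, Creb3l1 and Foxa3), all of them goblet genes, and Bcas1 was higher. Over all genes tested, 10.5% were lower and 9.48% higher, 2544 calls that were 1312 without AHR KO FICZ replicate 3. The median log2 difference was -0.49 over the 14 goblet genes, beside -0.004 over all genes. Regardless of treatment, all 4 AHR KO libraries lay below all 5 WT libraries in 6 of the 17 tested members (Fcgbp, Clca1, Agr2, Creb3l1, Foxa1 and Foxa3) and, of the 22 below the filter, in Spdef. Over all genes tested, 7.82% showed this pattern. The opposite pattern, shown by 7.76% of all genes tested, was seen in no member.

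**Figure D1:**
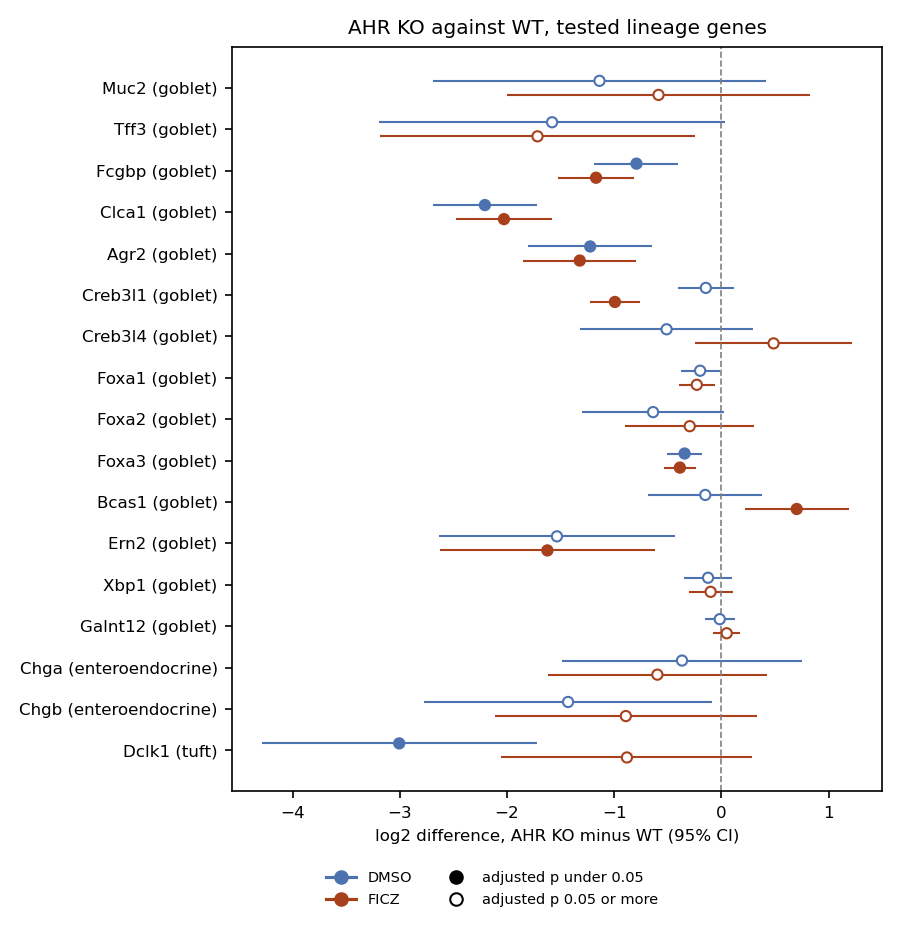
Difference between AHR KO and WT for the 17 tested members, on the log2(value + 1) scale (x axis), under DMSO (blue) and under FICZ (brown); bars are 95% confidence intervals of the limma fit, and filled circles mark an adjusted p under 0.05. All 17 estimates lie left of 0 under DMSO, and Clca1 has the interval farthest from 0 under FICZ.

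The genes of the secreted mucus are described first. Clca1, a metalloprotease that goblet cells release into mucus (chromosome 3, 145003817 to 145032776, minus strand, GRCm38), was 2125 and 3215 normalised counts in WT DMSO and 559 and 572 in AHR KO DMSO. Under FICZ it was 1734, 1551 and 2329 in WT and 521 and 391 in AHR KO. The genotypes did not overlap: the highest AHR KO library was at 572 and the lowest WT library at 1551. The mean of WT was 4.72 times that of AHR KO under DMSO (log2 difference -2.21, SE 0.22, limma adjusted p = 0.000299) and 4.10 times under FICZ (-2.03, SE 0.20, adjusted p = 7.6e-05). Both calls held in each of 21 alternative settings.

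Fcgbp, a large mucus protein that is bound to Muc2 (chromosome 7, 28071236 to 28120862, plus strand), was 1477 and 2008 in WT DMSO and 1054 and 938 in AHR KO DMSO. In the FICZ libraries it was 1831, 1859 and 1826 in WT, the smallest spread of the tested members over these 3 replicates, and 1000.4 and 668 in AHR KO. WT was again higher throughout. The log2 difference was -0.79 (SE 0.18, limma adjusted p = 0.0203) under DMSO and -1.17 (SE 0.16, adjusted p = 0.000698) under FICZ. The DMSO call was lost without WT DMSO replicate 3 (-0.57, adjusted p = 0.143), AHR KO DMSO replicate 1 (-0.88, adjusted p = 0.0740) or AHR KO DMSO replicate 3 (-0.71, adjusted p = 0.153).

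Muc2, the gel-forming mucin itself (chromosome 7, 141690340 to 141754693, plus strand), had the largest SD over the WT FICZ libraries of the 17 tested members. It was 125 and 294 in WT DMSO, 435, 73.1 and 347 in WT FICZ, 73.4 and 102 in AHR KO DMSO, and 141 and 156 in AHR KO FICZ. WT FICZ replicate 2 was thus just below the lowest AHR KO library, and the genotypes overlapped. With all libraries the difference between genotypes did not pass the test under DMSO (-1.14, 95% interval -2.69 to 0.41, limma adjusted p = 0.362) or FICZ (-0.59, -2.001 to 0.83, adjusted p = 0.568). A block on replicate number assumes that each number has an effect common to WT and AHR KO, which the labels do not state. Under DMSO the genotypes share only replicate 3. With this block and all libraries kept, the difference passed under DMSO (-2.09, adjusted p = 0.00665) and FICZ (-1.22, adjusted p = 0.0162). Without WT FICZ replicate 2 and without the block, the difference passed under FICZ (-1.38, adjusted p = 0.0177). Without both WT libraries numbered 2, a choice made after the values were seen, it passed under DMSO (-1.75, adjusted p = 0.00508) and FICZ (-1.38, adjusted p = 0.00161).

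Tff3, a trefoil peptide secreted with mucus, was 15.6 and 45.4 in WT DMSO, 53.9, 26.2 and 36.8 in WT FICZ, 3.13 and 19.9 in AHR KO DMSO, and 9.84 and 11.6 in AHR KO FICZ. The FICZ libraries of the genotypes did not overlap, and those under DMSO did. The log2 differences of -1.58 (SE 0.72) under DMSO and -1.72 (SE 0.66) under FICZ did not pass the test (limma adjusted p = 0.219 and 0.0971). With a block on replicate number the FICZ difference passed (-2.02, adjusted p = 0.0448). Without AHR KO DMSO replicate 1 or 3, which are not in the FICZ comparison but enter its estimate of the spread, the FICZ difference passed (adjusted p = 0.0373 and 0.0420), as it did with the compared groups fitted alone (0.0196).

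**Figure D2:**
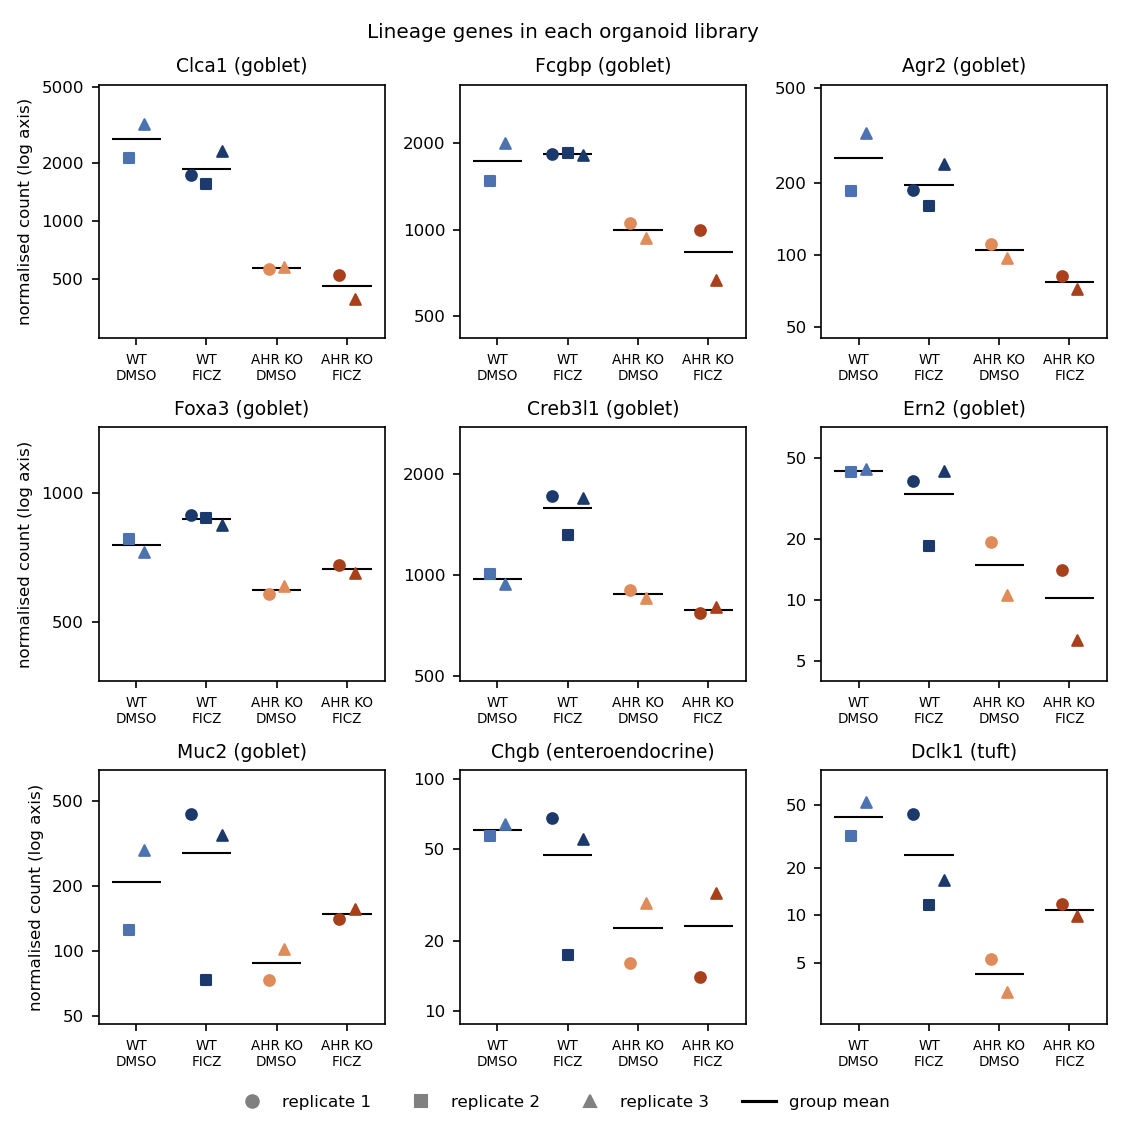
Normalised count of 9 members in each library (log y axis, a range of its own in each panel) by group; the marker shape gives the replicate number and the line the group mean. Clca1, Fcgbp, Agr2, Foxa3 and Creb3l1 show no overlap between WT and AHR KO, whereas WT FICZ replicate 2 lies within the AHR KO range in Ern2, Chgb and Dclk1 and just below it in Muc2.

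The next genes act in the endoplasmic reticulum and Golgi or on the secretory apparatus. Agr2, a disulfide isomerase that Muc2 needs in order to fold (chromosome 12, 35992907 to 36004087, plus strand), was 185 and 322 in WT DMSO and 111 and 97.2 in AHR KO DMSO. After FICZ it was 186, 160 and 239 in WT and 81.6 and 71.5 in AHR KO. No AHR KO library reached a WT library. The log2 difference was -1.22 (SE 0.26, limma adjusted p = 0.0167) under DMSO and -1.32 (SE 0.24, adjusted p = 0.00337) under FICZ. The DMSO call was lost without WT DMSO replicate 3 (-0.83, adjusted p = 0.110), AHR KO DMSO replicate 1 (-1.32, adjusted p = 0.0703) or AHR KO DMSO replicate 3 (-1.13, adjusted p = 0.127).

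Agr2 lies 457869 bp from Ahr on the same chromosome. Whether the Agr2 difference goes with sequence linked to the deleted allele was not tested. Of the 7 genes tested within 1000000 bp of Ahr, Ahr was higher and Agr2 lower in AHR KO under DMSO. Under FICZ, Ahr and Bzw2 (0.22, limma adjusted p = 0.0100) were higher and Agr2 and Ankmy2 (-0.31, adjusted p = 0.0200) lower. The log2 differences of Tspan13, Bzw2, Snx13, Ankmy2 and Ispd ran from -0.31 to 0.33 over both treatments.

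Ern2, a stress sensor of the endoplasmic reticulum found in mucus-secreting cells, was 42.7 and 44.4 in WT DMSO, 38.7, 18.6 and 43.1 in WT FICZ, 19.3 and 10.6 in AHR KO DMSO, and 14.0 and 6.40 in AHR KO FICZ. WT FICZ replicate 2 was just below the higher AHR KO DMSO library. The difference passed under FICZ (-1.62, SE 0.45, limma adjusted p = 0.0299) and not under DMSO (-1.53, SE 0.49, adjusted p = 0.0855), although the estimates were near each other. The FICZ call was lost without WT FICZ replicate 1 (adjusted p = 0.0879), WT FICZ replicate 3 (0.0970) or AHR KO FICZ replicate 3 (-1.11, adjusted p = 0.222), with no filter (0.0678) and with the compared groups fitted alone (0.0611). The DMSO difference passed without WT FICZ replicate 2 (adjusted p = 0.0478) and with the compared groups alone (0.0342). It also passed with a block on replicate number (-2.08, adjusted p = 0.0299).

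Xbp1, a transcription factor that expands the secretory apparatus in many cell types, was 1764 to 2285 over the 9 libraries with overlap of the genotypes under FICZ and none under DMSO (log2 difference -0.12, 95% interval -0.35 to 0.10, under DMSO). Galnt12, which adds the first sugar of mucin-type chains, stayed within 1080 to 1181 (-0.01, -0.15 to 0.13). Its gene overlaps a processed pseudogene, which may share its reads. The estimates for Clca1, Agr2 and Fcgbp lie outside both intervals.

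Bcas1 was the member called higher in AHR KO, and this was under FICZ. It was 112 and 117 in WT DMSO, 77.3, 79.0 and 65.7 in WT FICZ, 114 and 92.8 in AHR KO DMSO, and 93.3 and 156 in AHR KO FICZ. Both AHR KO FICZ libraries were above all 3 WT FICZ libraries (0.70, SE 0.22, limma adjusted p = 0.0469). The call was lost in most settings, with an adjusted p of up to 0.367 without AHR KO FICZ replicate 3 (log2 difference 0.34), and it was held without AHR KO FICZ replicate 1. Bcas1 overlaps an antisense gene, Bcas1os1.

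Among the transcription factors, Foxa3, a forkhead factor of endoderm that is also made in goblet cells (chromosome 7, 19013284 to 19023538, minus strand), showed a small and even difference. It was 783 and 729 in WT DMSO and 582 and 609 in AHR KO DMSO. With FICZ it was 892, 874 and 843 in WT and 679 and 652 in AHR KO. The genotypes did not overlap under either treatment. The log2 difference was -0.34 (SE 0.08, limma adjusted p = 0.0188) under DMSO and -0.39 (SE 0.07, adjusted p = 0.00303) under FICZ. With a block on replicate number the DMSO call was lost (-0.33, adjusted p = 0.0667), as it was without both WT libraries numbered 2 (-0.29). The DMSO call was lost without WT DMSO replicate 2 (-0.29, adjusted p = 0.138), AHR KO DMSO replicate 1 (-0.31, adjusted p = 0.125) or AHR KO DMSO replicate 3 (-0.38, adjusted p = 0.0812), and the FICZ call in no setting tried.

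Creb3l1, a factor anchored in the endoplasmic reticulum that acts late in goblet cell maturation (chromosome 2, 91982328 to 92024502, minus strand), was 1010 and 941 in WT DMSO and 906 and 857 in AHR KO DMSO, so that the genotypes lay close together. With FICZ it was 1726, 1322 and 1702 in WT against 774 and 805 in AHR KO. The log2 difference between genotypes was -0.15 (95% interval -0.41 to 0.12, limma adjusted p = 0.502) under DMSO and -0.99 (SE 0.11, adjusted p = 0.000132) under FICZ.

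Foxa1 and Foxa2, the other forkhead factors of the list, differed less clearly. Foxa1 was 2787 and 2444 in WT DMSO, 2831, 2429 and 2617 in WT FICZ, 2290 and 2259 in AHR KO DMSO, and 2197 and 2275 in AHR KO FICZ, with no overlap of genotypes and a small log2 difference of -0.20 (limma adjusted p = 0.174) under DMSO and -0.23 (adjusted p = 0.0564) under FICZ. The FICZ difference passed without WT FICZ replicate 2 (-0.28, adjusted p = 0.0180), and without either WT DMSO library (adjusted p = 0.0475 and 0.0473). Foxa2 was 83.2 and 100.3 in WT DMSO and 56.1 and 60.8 in AHR KO DMSO, without overlap, and 65.3, 47.4 and 78.6 in WT FICZ and 65.4 and 39.2 in AHR KO FICZ, with overlap. Its log2 differences of -0.64 and -0.29 did not pass (limma adjusted p = 0.225 and 0.490).

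Spdef, the ETS factor that drives goblet cell maturation downstream of Atoh1, had a mean below the filter. It was 12.5 and 7.20 in WT DMSO, 24.7, 10.1 and 14.7 in WT FICZ, 1.68 and 1.60 in AHR KO DMSO, and 2.30 and 2.01 in AHR KO FICZ. Every AHR KO library was below every WT library. In the fit without a filter, where 36 members were tested, its log2 difference was -1.997 (SE 0.58, limma adjusted p = 0.103) under DMSO and -2.39 (SE 0.53, adjusted p = 0.0191) under FICZ. In the same fit, Reg4, a secreted lectin (14.6 and 32.8 in WT DMSO, 1.59 and 0.967 in AHR KO DMSO), was lower in AHR KO under DMSO (-3.35, SE 0.77, adjusted p = 0.0418) and not under FICZ (-1.46, adjusted p = 0.274).

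The remaining goblet genes were low. Spink4, a protease inhibitor, was 9.60 and 16.4 in WT DMSO and 0 and 3.68 in AHR KO DMSO, and over both treatments 6.17 to 16.4 in WT and 0 to 6.74 in AHR KO. Retnlb, a resistin-like peptide, was 3.89 to 15.1 and 3.19 to 9.92, and Creb3l4, a relative of Creb3l1 and 1 of the tested members, was 13.2 to 21.6 and 10.5 to 22.3. Both AHR KO FICZ libraries of Creb3l4 (20.1 and 22.3) were above all 3 of WT FICZ (13.2 to 16.5), and the log2 difference of 0.49 did not pass the test (limma adjusted p = 0.339). Zg16, Klk1 and Gfi1 stayed under 5 in every library. Low values of this kind carry few reads.

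Windows of 250 bases before the RefSeq start were read for 27 of the 39 members (35 windows, GRCm38.p6) and searched on both strands for GCGTG, the core of the element that AHR binds. It was found in 11 of the 35 windows (31.4%), beside 28.2% of all 32851 windows of that length. The windows of the 3 goblet genes that were lower in AHR KO under both treatments and had an entry are shown 5′ to 3′, so that their promoters can be read beside their values. Capitals mark the motif. The Agr2 window is chr12:35992675-35992924 on the plus strand, that of Fcgbp chr7:28070986-28071235 on the plus strand, and that of Foxa3 chr7:19023540-19023789 on the minus strand.
Agr2: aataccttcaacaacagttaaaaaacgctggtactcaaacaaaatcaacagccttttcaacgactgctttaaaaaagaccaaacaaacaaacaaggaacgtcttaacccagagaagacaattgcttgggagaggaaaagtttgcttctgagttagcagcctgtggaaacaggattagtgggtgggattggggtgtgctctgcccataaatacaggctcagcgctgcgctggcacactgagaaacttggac
Fcgbp: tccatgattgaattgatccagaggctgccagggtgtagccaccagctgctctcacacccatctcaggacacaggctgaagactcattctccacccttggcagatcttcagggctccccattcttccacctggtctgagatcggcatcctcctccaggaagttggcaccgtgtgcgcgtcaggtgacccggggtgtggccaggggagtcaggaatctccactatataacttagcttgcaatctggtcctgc
Foxa3: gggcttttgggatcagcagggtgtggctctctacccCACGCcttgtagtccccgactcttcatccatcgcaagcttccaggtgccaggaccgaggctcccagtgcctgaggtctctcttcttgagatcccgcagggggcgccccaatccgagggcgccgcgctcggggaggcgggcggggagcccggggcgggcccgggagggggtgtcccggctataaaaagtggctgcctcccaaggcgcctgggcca
The Foxa3 window holds 1 match, in its reverse complement, which begins 214 bases before the start, and those of Agr2 and Fcgbp hold none. Spdef, Atoh1, Chga, Neurog3 and Dclk1 each had at least 1 match in a window. A match is a description of letters and not a binding site, and a window without these letters says nothing about binding elsewhere.

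The enteroendocrine genes were low in WENR organoids and varied widely. Chgb, a chromogranin of hormone granules, was 56.5 and 64.1 in WT DMSO, 68.1, 17.5 and 54.99 in WT FICZ, 16.0 and 29.3 in AHR KO DMSO, and 14.0 and 32.3 in AHR KO FICZ. It was higher in WT but for WT FICZ replicate 2, which lay within the AHR KO range. The difference did not pass under DMSO (log2 difference -1.43, 95% interval -2.77 to -0.09, limma adjusted p = 0.181) or FICZ (-0.89, -2.12 to 0.33, adjusted p = 0.291). It passed under FICZ without WT FICZ replicate 2 (-1.48, adjusted p = 0.0305) and under DMSO with the compared groups fitted alone (adjusted p = 0.0355).

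Chga, the other chromogranin, was 12.7 and 10.4 in WT DMSO, 21.9, 8.22 and 12.0 in WT FICZ, 9.60 and 7.79 in AHR KO DMSO, and 7.01 and 9.67 in AHR KO FICZ. The genotypes overlapped under FICZ through WT FICZ replicate 2 alone and did not overlap under DMSO, and no comparison passed. Without that library the Chga difference under FICZ was -0.90 (limma adjusted p = 0.185), beside -0.60 (adjusted p = 0.403) with it. Neurog3 was 0.973 and 2.82 in WT DMSO, 7.65, 4.10 and 0.996 in WT FICZ, 0.799 and 6.80 in AHR KO DMSO, and 0 and 2.15 in AHR KO FICZ, with no order of the groups. The hormones and their enzymes Pyy, Gcg, Sct and Tph1 ranged from a listed 0 to 11.0 in the 9 libraries, and Neurod1, a factor downstream of Neurog3, from 0 to 3.29.

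Of the 25 other enteroendocrine genes that were looked up, 4 were tested. Of these, 1 was lower in AHR KO under DMSO and under FICZ: Cpe, a prohormone-processing carboxypeptidase also made outside endocrine cells (-0.48, limma adjusted p = 0.0368, and -0.58, adjusted p = 0.00529), beside 4.83% and 10.5% of all genes lower. The Cpe call under DMSO was lost without any 1 of the 4 DMSO libraries (adjusted p from 0.0501 to 0.233), and that under FICZ without AHR KO FICZ replicate 3 (-0.46, adjusted p = 0.0661). The hormones Ghrl and Gip and the factors Pax4 and Rfx6 were listed at 0 in all libraries.

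Dclk1, a kinase used as a tuft cell marker (chromosome 3, 55242364 to 55539068, plus strand), was the tuft gene whose mean passed the filter. It passed through WT, with means of 41.7 and 24.2 in WT against 4.27 and 10.8 in AHR KO under DMSO and FICZ. It was 31.7 and 51.8 in WT DMSO and 5.27 and 3.28 in AHR KO DMSO, without overlap. In the FICZ libraries it was 44.1, 11.6 and 16.8 in WT and 11.7 and 9.86 in AHR KO, and the groups met through WT FICZ replicate 2 alone (11.6). The log2 difference was -3.01 (SE 0.58, limma adjusted p = 0.0102) under DMSO, the largest of the 17 members, and -0.88 (95% interval -2.05 to 0.29, adjusted p = 0.275) under FICZ, where it was -1.27 without WT FICZ replicate 2 (adjusted p = 0.104). In the fit without a filter the Dclk1 call under DMSO was held (adjusted p = 0.0263). The DMSO call was lost without WT DMSO replicate 3 (-2.66, adjusted p = 0.0849) or AHR KO DMSO replicate 3 (-2.73, adjusted p = 0.0891). Dclk1 overlaps 2 annotation entries of the class TEC on its own strand.

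The other tuft members were below the filter. Pou2f3 was 5.72 and 1.11 in WT DMSO, 2.57, 2.59 and 0 in WT FICZ, 2.82 and 1.14 in AHR KO DMSO, and 5.26 and 3.61 in AHR KO FICZ. Trpm5, the cation channel of the taste pathway, was 0.692 to 7.03 in WT and 1.43 to 7.70 in AHR KO. Alox5ap, an activator of leukotriene synthesis, was 2.997 and 3.133 in WT DMSO and listed at 0 in both AHR KO DMSO libraries. With FICZ it was 0, 1.55 and 0 in WT and 0.455 and 0.488 in AHR KO, and the groups met. In the fit without a filter its log2 difference under DMSO was -2.02 (limma adjusted p = 0.0645). Sh2d6 and Rgs13 were under 2 in every library.

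Of 25 other tuft-associated genes, 8 were tested, and under DMSO 2 were higher in AHR KO and none lower: Ptgs1, a cyclooxygenase (24.3 and 33.2 in WT, 236 and 250 in AHR KO, log2 difference 3.05, limma adjusted p = 5.99e-05), and Cd24a (0.37, adjusted p = 0.0191). Under FICZ 2 were higher, again Ptgs1 (3.005) and Cd24a (0.66), and 2 lower, the phosphatase Ptpn6 (-1.01, adjusted p = 0.000247) and the phospholipase Plcg2 (-0.89, adjusted p = 5.89e-05). Over all genes tested, 4.21% were higher and 4.83% lower under DMSO, and 9.48% higher and 10.5% lower under FICZ. Defining tuft genes Il25 and Chat were listed at 0 in all libraries.

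Few of the members were called as changed with FICZ, and the intervals of several, among them Muc2, Tff3 and Dclk1, were wide. In WT, 2 of the 17 were higher with FICZ, Creb3l1 and Foxa3, and none was lower, beside 15.1% higher and 15.7% lower over all genes tested. These 3928 calls over all genes were 1990 without WT DMSO replicate 2, 2270 without WT DMSO replicate 3, 2527 without both WT libraries numbered 2 and 2313 with trends of GC content and length removed. In AHR KO none of the 17 was called, beside 10.2% higher and 9.48% lower over all genes. None had an unadjusted p under 0.05 in limma, and the share of all genes at that threshold is not given here. The calls over all genes in AHR KO, 2509 in all, were 420 without AHR KO DMSO replicate 1, 1261 without AHR KO DMSO replicate 3, 1544 without AHR KO FICZ replicate 1, 1206 without AHR KO FICZ replicate 3 and 683 with trends of GC content and length removed. These comparisons share DMSO libraries with those between genotypes.

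Creb3l1 rose from 1010 and 941 to 1726, 1322 and 1702 normalised counts in WT, 1.62 times on the means (log2 difference 0.69, SE 0.11, limma adjusted p = 0.00135), and the call held in all 22 alternative settings. In AHR KO it was 906 and 857 with DMSO and 774 and 805 with FICZ (-0.16, 95% interval -0.42 to 0.10, adjusted p = 0.373). With trends of GC content and length removed, the Creb3l1 change was 0.36 in WT (adjusted p = 0.0240) and -0.50 in AHR KO, where it was then called (adjusted p = 0.0216). The difference between these changes was 0.85 (SE 0.16, 95% interval 0.50 to 1.2), with an adjusted p of 0.0626 in the interaction test, which called 0.447% of all genes. These 57 calls were 23 without AHR KO DMSO replicate 1 or 3, 33 without WT DMSO replicate 2 or WT FICZ replicate 3 and 35 without WT DMSO replicate 3. None of the 17 tested members was called there. At an unadjusted p under 0.05 the count was 3, and the share of all genes at that threshold is not given here. Without WT FICZ replicate 2, the lowest of its group, the Creb3l1 interaction was 0.97 (adjusted p = 0.00206), and without AHR KO DMSO replicate 1 it was 0.81 (adjusted p = 0.305). These are the ends of the adjusted p over 22 alternative settings, 17 of which left it uncalled.

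Foxa3 rose in WT by 0.20 on the log2 scale (SE 0.07, limma adjusted p = 0.0454), a call that was lost whichever of the 9 libraries was left out (adjusted p from 0.0512 to 0.263) and with trends of GC content and length removed (0.07, adjusted p = 0.499). In AHR KO its change was 0.16 (95% interval -0.01 to 0.33, adjusted p = 0.161). The difference between the genotypes was 0.04 (-0.18 to 0.27, adjusted p = 0.971).

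Clca1 was 0.50 lower on the log2 scale with FICZ in WT (95% interval -0.95 to -0.06, limma adjusted p = 0.0806). It passed the test without WT DMSO replicate 2 (-0.80, adjusted p = 0.0338) or WT FICZ replicate 3 (-0.67, adjusted p = 0.0294). Bcas1 had a log2 difference of -0.63 in WT (adjusted p = 0.0532), which passed without AHR KO FICZ replicate 1 or 3 (adjusted p = 0.0208 and 0.0224). Dclk1 was at -0.94 in WT (95% interval -2.11 to 0.23) and at 1.18 in AHR KO (-0.10 to 2.47), and neither passed. Without WT FICZ replicate 1 the Dclk1 change in WT was -1.47 (adjusted p = 0.0407). With a block on replicate number, Clca1 (-0.57, adjusted p = 0.0250) and Dclk1 (-1.31, adjusted p = 0.0471) both passed in WT.

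Muc2 changed by 0.22 in WT (95% interval -1.199 to 1.63, limma adjusted p = 0.834) and by 0.77 in AHR KO (-0.78 to 2.32, adjusted p = 0.477). Without WT FICZ replicate 2 its change in WT was 1.01 (adjusted p = 0.0485), and without both WT libraries numbered 2 it was 0.40 (adjusted p = 0.265), within a range of -0.40 to 1.01 over 22 settings. The Agr2 estimates (-0.34 in WT, -0.44 in AHR KO) and the Fcgbp estimates (0.10 and -0.28) did not pass. Without AHR KO FICZ replicate 1 the Fcgbp change in AHR KO was -0.57 (adjusted p = 0.0448).

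**Figure D3:**
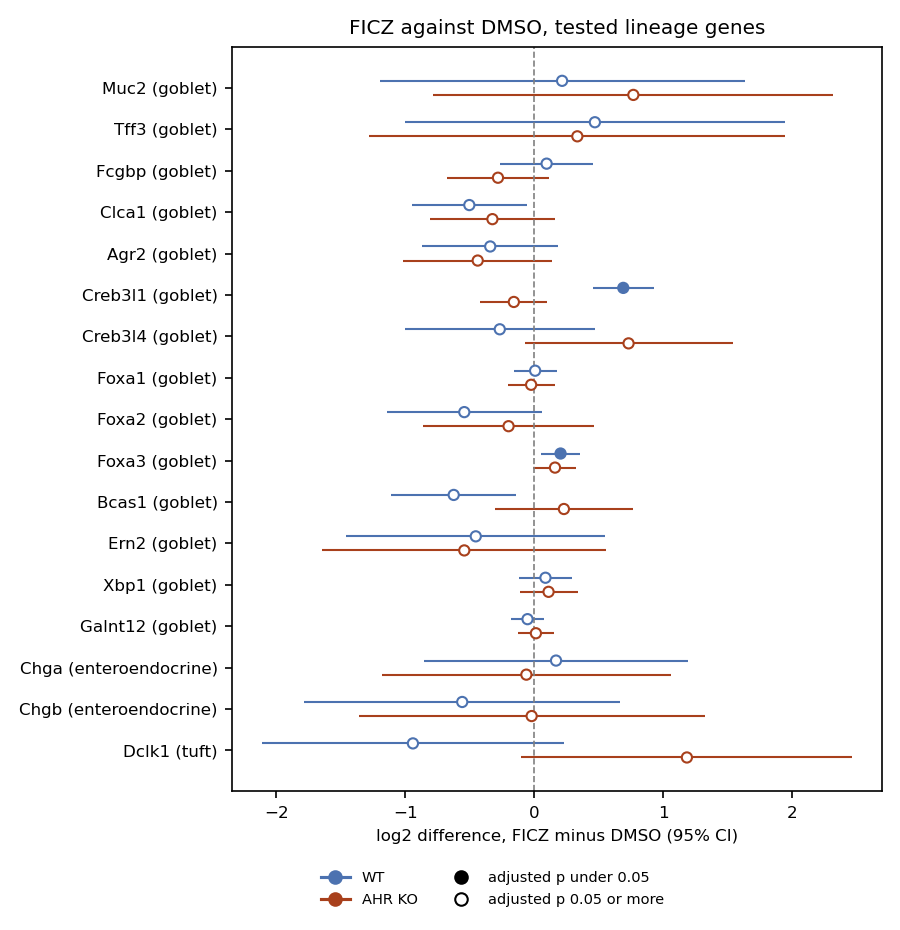
Change with FICZ for the 17 tested members on the log2(value + 1) scale (x axis) in WT (blue) and AHR KO (brown); bars are 95% confidence intervals of the limma fit, and filled circles mark an adjusted p under 0.05. The intervals of Creb3l1 in WT and AHR KO do not overlap, and the wide bars of Muc2, Tff3, Chgb and Dclk1 cover 0 in both.

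The spread over the 3 WT FICZ libraries is given per lineage, and a difference between lineages was not tested. The median SD of log2(value + 1) was 0.18 for the 14 goblet genes, 0.84 for Chga and Chgb and 0.95 for Dclk1, beside 0.11 over all genes tested and 0.32 over the 2500 genes with a mean of 10 to 100, which is the range of Chga, Chgb and Dclk1. With no filter on low values these medians were 0.403, 1.01 and 0.865 for the goblet, enteroendocrine and tuft members. Muc2 had an SD of 1.39, a value reached by 0.604% of genes, and a highest library 5.94 times its lowest. Chgb reached 1.02 (1.04% of genes), Dclk1 0.95 (1.27%), Chga 0.66 (2.95%) and Ern2 0.64 (3.29%). At the other end, Fcgbp had an SD of 0.01, exceeded by 98.2% of genes, and Foxa3 of 0.04. Mucus genes therefore stood at both ends of the scale.

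Replicate 2 was the lowest WT FICZ library for Muc2, Tff3, Clca1, Agr2, Creb3l1, Foxa1, Foxa2, Ern2, Chga, Chgb and Dclk1, which are 8 of 14 goblet genes and all 3 tested genes of the other lineages. Replicates 1 and 3 were each the lowest in 3 members. Of the 17 tested members, 8 (47.1%) were lower in the WT library numbered 2 than in that numbered 3 under DMSO and again under FICZ, beside 25.2% of all genes. The labels do not say whether libraries of a number share an animal, and its part in these differences was not tested.

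**Figure D4:**
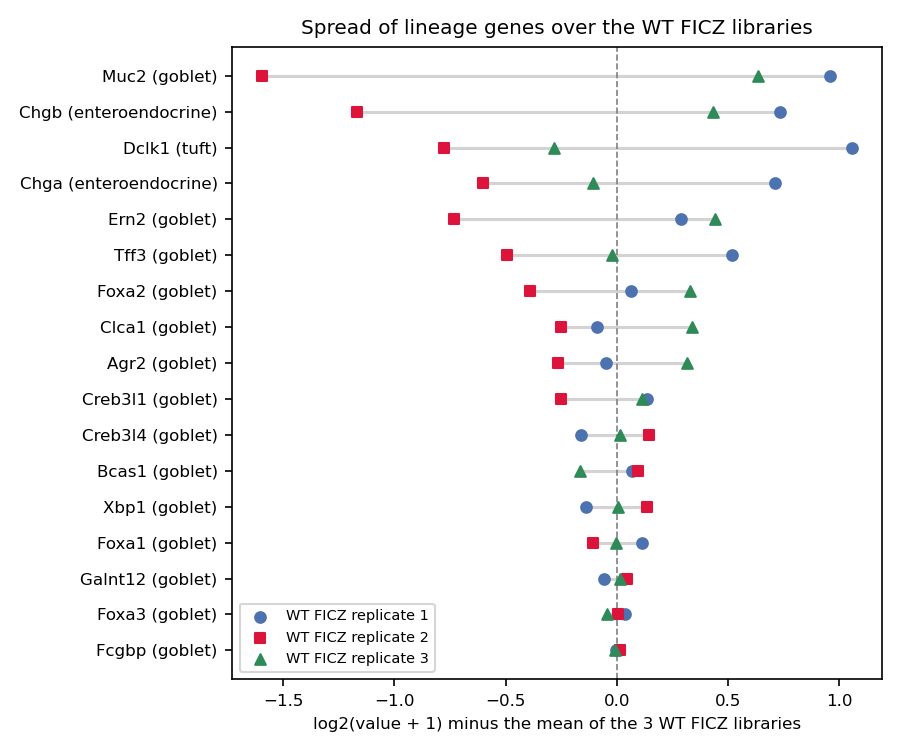
Deviation of each WT FICZ library from the mean of the 3, on the log2(value + 1) scale (x axis), for the 17 tested members ordered by their SD; shapes and colours give the replicate. Replicate 2 (red squares) is the lowest point in 11 members and lies farthest out for Muc2, at -1.60.

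Other genes of the goblet programme, grouped in lists by function, were read beside the members. Like the members, these lists were chosen with earlier results of these data known, so their counts are not an independent check. Their counts stand beside the shares of all genes tested given above: between genotypes 4.83% lower and 4.21% higher under DMSO and 10.5% lower and 9.48% higher under FICZ, and with FICZ 15.7% lower and 15.1% higher in WT and 9.48% lower and 10.2% higher in AHR KO. Of 24 further goblet and mucin genes, 13 were tested. Under DMSO 4 were lower in AHR KO and none higher: Ang4, an antimicrobial ribonuclease (-2.28, limma adjusted p = 0.00706), Nlrp6, an inflammasome sensor (-1.88, adjusted p = 0.000796), Clca3b, a relative of Clca1 (-1.08, adjusted p = 5.99e-05), and the membrane mucin Muc13 (-0.69, adjusted p = 0.0450). The median log2 difference of the 13 was -0.69. Under FICZ 8 were lower and 1 higher, with Nlrp6 (-2.63), Guca2a (-1.78), Muc3 (-1.40) and Muc3a (-1.30) as the largest and a median of -1.11. Muc3 and Muc3a lie side by side and are near copies, so that reads may be divided between them.

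In WT, FICZ raised 5 of these 13 and lowered none, among them Muc3a (0.996, limma adjusted p = 0.0154), Muc3 (0.87, adjusted p = 0.00941), Nlrp6 (0.83, adjusted p = 0.0119) and Muc4 (0.80, adjusted p = 0.0392). Muc3, Muc3a and Muc4 are mucins of the cell membrane, made by absorptive cells as well. In AHR KO none of the 13 was called. No gene of this list was called in the interaction test.

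Of 20 enzymes of mucin O-glycosylation, 17 were tested. Between genotypes under DMSO 3 were lower in AHR KO, with the sialyltransferases St6galnac6 (-1.26, limma adjusted p = 0.00696) and St3gal4 (-0.53, adjusted p = 0.0208) as the largest, and Gcnt1 was higher (0.70, adjusted p = 0.000590). Under FICZ 5 were lower, led by St6galnac6 (-1.37) and the fucosyltransferase Fut2 (-1.11), and 1 higher. FICZ raised 3 and lowered 5 in WT, with Fut2 (0.80, adjusted p = 0.000413) the largest rise, and lowered 3 in AHR KO, beside 15.1% of all genes higher and 15.7% lower in WT and 9.48% lower in AHR KO. The 3 in AHR KO, Fut8, Galnt1 and Galnt3, lost their calls with trends of GC content and length removed (adjusted p = 0.0921, 0.363 and 0.482). The median log2 difference of the list was between -0.17 and 0.11 in all comparisons.

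All 21 genes of the unfolded protein response and secretory endoplasmic reticulum were tested. FICZ lowered 8 and raised 1 in WT and lowered 4 in AHR KO, beside 15.7% of all genes lower and 15.1% higher in WT and 9.48% lower in AHR KO. The chaperones Canx (-0.37 in WT and -0.42 in AHR KO), Hsp90b1 (-0.36 and -0.35) and Calr (-0.34 and -0.35) fell in both genotypes. With trends of GC content and length removed, Canx was at -0.19 in WT and -0.25 in AHR KO, Hsp90b1 at -0.19 in WT and at -0.18 in AHR KO, where its call was lost (limma adjusted p = 0.0738), and Calr at -0.34 and -0.36. None of the 21 was called in the interaction test. Between genotypes under DMSO 1 gene, Herpud1, was lower (-0.28, limma adjusted p = 0.0456), beside 4.83% of all genes, and its call was lost without any 1 of the 4 DMSO libraries (adjusted p from 0.0708 to 0.263) or WT FICZ replicate 3 (adjusted p = 0.0595). Under FICZ 2 were higher, Ern1 (0.44, adjusted p = 0.000523) and Atf6 (0.21, adjusted p = 0.0315), and 2 lower, Herpud1 (-0.28, adjusted p = 0.0171) and Calr (-0.25, adjusted p = 0.0154), beside 9.48% and 10.5% of all genes. The median difference between genotypes over the list was 0.01 under DMSO and under FICZ.

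Of 20 genes that steer the choice between lineages, 16 were tested. Under DMSO 5 were lower in AHR KO, with the intestinal factors Cdx1 (-1.15, limma adjusted p = 0.000191), Hnf4a (-0.50, adjusted p = 0.00759) and Cdx2 (-0.43, adjusted p = 0.0191) among the largest, and the Notch ligand Jag2 was higher (0.52, adjusted p = 0.00230). Under FICZ 5 were lower and 4 higher, among them Sox9, a factor of stem and secretory progenitors (1.13, adjusted p = 2.76e-05). In WT, FICZ raised 6 and lowered 3, with Cdx2 (0.80) and Notch2 (0.55) up and Sox9 (-0.91) and Jag1 (-0.65) down. In AHR KO it raised Notch2 (0.37, adjusted p = 0.0106) and Jag2 (0.34, adjusted p = 0.0125), and once trends with GC content and length were removed the Jag2 change turned to -0.12 (adjusted p = 0.491) and Notch2, at 0.19, lost its call (adjusted p = 0.124).

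Markers of other epithelial and non-epithelial cells were read for the same comparisons, beside the same shares of all genes. Of 12 markers of absorptive colonocytes, 6 were tested. Of these, 4 were lower in AHR KO under DMSO (Car1 -2.25, Cyp2c55 -1.35, Ceacam20 -1.06 and Krt20 -0.72) and 5 under FICZ. Car2, the highest of the 12, was not called in either comparison. The summed level of the 12 overlapped between genotypes, at 26353 to 28703 in the WT libraries and 25752 to 28528 in AHR KO. The absorptive markers thus did not all move with the lower goblet genes. Of 6 tested stem and proliferation markers none was called under DMSO and Lgr5 was higher under FICZ (1.46, limma adjusted p = 1.5e-05). Of 7 Paneth genes, the defining Lyz1, Defa17, Defa22 and Defa24 were listed at 0, and 2 were tested. Mmp7 was higher in AHR KO (2.06 under DMSO and 2.31 under FICZ) and Itln1 was called lower in both comparisons.

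Fibroblast markers were low but for Pdgfrb, the 1 tested. The 7 summed to 57.5 to 111 in WT and 19.4 to 39.1 in AHR KO, with Lum at 0. Nearly all of this was Pdgfrb, at 55.7 to 110 in WT and 15.3 to 34.5 in AHR KO. Pdgfrb was lower in AHR KO (-1.60, limma adjusted p = 0.0155, and -1.55, adjusted p = 0.00533), and the sum says little about the other fibroblast markers. The 5 neuronal and glial markers summed to 66.1 to 97.3 in WT and 19.8 to 47.2 in AHR KO, with S100b and Sox10 at 0. Most of that was Elavl4, at 57.0 to 85.8 in WT and 11.3 to 40.6 in AHR KO. The 7 immune markers, with Cd68 the highest, summed to 799 to 942 in WT and 851 to 1098 in AHR KO, with Ptprc and Lyz2 at 0. The 4 endothelial markers reached at most 10.8 in any library. The part of these cell types in the differences of the lineage genes was not tested.

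Many of these list calls rested on few libraries. Of the 23 list and marker genes picked by size as called between genotypes under DMSO, 15 lost the call without at least 1 library (limma adjusted p up to 0.263), and Nlrp6, Clca3b, Gcnt1, Cdx1, Jag2, Ptgs1, Car1 and Mmp7 kept it without any 1 of them. Under FICZ 6 of 31 lost it, Muc3a, Atf6, Calr, Herpud1, Cpe and Elavl4. With FICZ in WT 7 of 20 lost it, among them Muc3 and Nlrp6 without WT DMSO replicate 2 (adjusted p = 0.0683 and 0.0913) and Muc4 in 14 of 22 alternative settings (adjusted p up to 0.161 without WT DMSO replicate 3). With FICZ in AHR KO 7 of 9 lost it, and Fut8 and Canx kept it without any 1 library. With trends of GC content and length removed, 6 of these 9 and 4 of the 20 in WT lost it. Between genotypes under DMSO, 11 of the 23 lost it without both WT libraries numbered 2, and 5 in the fit without a filter.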

How the data were processed

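The 39 members and all other lists were chosen with earlier results of these data known. The deposited values for the 9 libraries are a signal, read counts normalised by the authors that need not be whole. The submitters' processing notes list STAR 2.5.2a, RSEM 1.2.31 and DESeq2 1.16.1 as used by the authors, with GRCm38, and the study's methods list summarizeOverlaps, mm10 and a stranded, ribosome-depleted library kit. The step that produced the scaling is not given in the sources used here. The design foresaw either unit. Low values did not resolve to whole reads, so no count model was run, and depth is given as summed signal.

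From there on, identifiers were matched to GENCODE M21 (48435 of 48795). The 12741 genes averaging 10 or more were tested on log2(value + 1), a scale that understates changes of low genes, with limma 3.58.1 in R 4.3.3 (lmFit, eBayes with trend) in 1 fit of 4 groups and 5 contrasts. Tests were two-sided, with Benjamini-Hochberg adjustment over all genes tested and a threshold of 0.05. The script was tested on simulated data. Per the study's methods, the organoids came from 3 biological replicates; the labels do not tie libraries to animals, so p-values measure the spread between these libraries. All members were accounted for. Values in every library are given for members called in any contrast or whose call changed without 1 library, and for Muc2, Tff3, Atoh1, Spdef, Chga, Neurog3, Pou2f3 and Dclk1. Of the other lists, up to 4 called genes averaging 50 or more, those with the largest change, are named per contrast. Reg4, genes near Ahr and genes listed at 0 were named after their values were seen. Promoter windows are RefSeq's (GRCm38.p6).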

Additional observations from a re-analysis of the deposited data

Results flagged for a closer look

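The difference between the FICZ changes in WT and AHR KO was called for 3 genes of the lists read beside the members, by the interaction test of the limma fit. Sox9, a factor of progenitors, had a log2 difference of -1.01 (adjusted p = 0.0113): it was 3696 and 3551 in WT DMSO and 2186, 1665 and 1951 in WT FICZ, and between 3877 and 4279 in the AHR KO libraries. Lgr5, a receptor of stem cells, had -1.24 (adjusted p = 0.00784). Plcg2, a phospholipase of tuft and immune cells, had 1.01 (adjusted p = 0.00581): it was 549 and 534 in WT DMSO and 1177, 1012 and 1063 in WT FICZ, and between 550 and 617 in AHR KO. Plcg2 kept the call without any 1 library. Lgr5 lost it without AHR KO DMSO replicate 3 (-1.13, adjusted p = 0.0611), and Sox9 without WT DMSO replicate 2, AHR KO DMSO replicate 1 or 3, or AHR KO FICZ replicate 3 (adjusted p = 0.0544 to 0.0870). None of the 17 lineage genes tested was called here, and Creb3l1 was called in 5 of 22 alternative settings.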

How the results depend on the processing

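The alternatives were a pseudocount of 0.1 or 10, no filter or a mean of 100, quantile or upper quartile scaling, robust eBayes, fitting the compared groups alone, the replicate block, a fixed block (FICZ contrasts and interaction) or a random effect of number within genotype, removal of GC and length trends, leaving out each library and, added after the data were seen, leaving out both WT libraries numbered 2. With FICZ in WT, where 2 members were called, 1 was called with no filter, and 1 to 2 without 1 library (1 without WT DMSO replicate 3, AHR KO DMSO replicate 1 or AHR KO DMSO replicate 3). With FICZ in AHR KO, where 0 were called, 1 was called with the compared groups alone (Muc2), after GC and length removal (Creb3l1) and without the WT libraries numbered 2 (Muc2), and 0 to 1 without 1 library. In the interaction, also 0, Creb3l1 was the 1 call under quantile scaling, upper quartile scaling, GC and length removal and without the WT libraries numbered 2, and 0 to 1 were called without 1 library. The 5 calls between genotypes under DMSO ranged from 1 to 6 without 1 library, with 2 without WT DMSO replicate 3, 2 without AHR KO DMSO replicate 1 and 1 (Clca1) without AHR KO DMSO replicate 3. Under FICZ the 7 calls ranged from 5 to 9. The median goblet SD was 0.403 with no filter, where low genes enter. Jag2 with FICZ in AHR KO reversed to -0.121 after GC and length removal. The cause of these shifts was not tested. Deviations of libraries with the same number and genotype correlated at 0.0346 to 0.0498 (4 pairs). With 2 libraries in each AHR KO group, the AHR KO pairs share a value (0.0346) by construction and are not separate checks. The main fit had no block because the study's methods give none and the labels do not say that a number pairs samples. The correlations are taken over all genes tested, and pairing for the lineage genes alone was not tested. The replicate block gave each number an effect shared by both genotypes, although the labels do not tie WT and AHR KO libraries of a number together. With the replicate block, the calls were 3, 0 and 0 for FICZ in WT, FICZ in AHR KO and the interaction. Between genotypes they were 6 and 8 under DMSO and FICZ, and Muc2 was called in both (-2.09 and -1.22). Under DMSO, Ern2 was then also called and Foxa3 was not. Under FICZ, Tff3 was then also called and Bcas1 was not. For FICZ in WT the 3 calls with the replicate block were Creb3l1, Clca1 (-0.57, adjusted p = 0.0250) and Dclk1 (-1.31, adjusted p = 0.0471), and with the block within genotype also 3, Creb3l1, Clca1 (-0.46, adjusted p = 0.0153) and Dclk1 (-1.47, adjusted p = 0.0367), while the calls for FICZ in AHR KO and the interaction stayed at 0. The levels of the 22 members below the filter amount to few reads, and the part of sequencing depth in this was not tested.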
